A study of Mus musculus with 4 samples.

Results

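The genes described here encode the collagen alpha chains, chosen as the entries of the joined expression table whose name has the form Col, a number, the letter a and a number. This rule found 43 of 55267 entries. They were measured by RNA-seq in cultured muscle stem cells (MuSCs), the PAX7-positive cells that lie between a muscle fibre and its basement membrane and regenerate skeletal muscle. The cells came from skeletal muscle of adult mice carrying a Pax7-EGFP reporter transgene, C57BL/6N(Tg(Pax7-EGFP)Tajb), females aged 9 weeks, and were sorted for that reporter. How many animals went into a library is not given in the sources used here.

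All 4 cultures were grown on Matrigel-coated dishes at 3% oxygen, in medium with fetal bovine serum, basic FGF and leukemia inhibitory factor. The cultures were then starved of serum for 6 h in medium that contained 200 ng/mL BMPR1A-Fc, a soluble receptor that captures BMPs. The BMP6 group (2 libraries) was stimulated for 1 h with 100 ng/mL BMP6, a bone morphogenetic protein. The control group (2 libraries) received the vehicle, 4 mM HCl with 0.1% BSA, for the same time. Both groups hold a library from biological replicate 1 and a library from biological replicate 2, and the labels give that number as a batch. Every BMP6 library therefore has a control library of the same batch.

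Collagens are made of 3 alpha chains wound into a triple helix, which requires glycine as the first residue of a repeated Gly-X-Y triplet. The fibrillar collagens (types I, II, III, V, XI, XXIV and XXVII) assemble into the fibrils of the interstitial matrix. The basement membrane collagens (the 6 chains of type IV) form a sheet-like network together with laminin. The remaining chains form beaded filaments (type VI), coat fibrils (the FACIT collagens, which carry interrupted triple helices), build other networks or span the cell membrane. In resting muscle, MuSCs are surrounded by type IV and type VI collagen, and type V collagen made by the cells themselves is known as a signal of their quiescence.

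The repeat is visible in the exons, and the exon lengths set the fibrillar genes apart from the rest. In the fibrillar genes, 305 of 625 internal exons (48.8%) of the most abundant transcript were 54 bases long, against 12 of 286 (4.20%) in the basement membrane genes, 148 of 989 (15.0%) in the others and 0.590% of 100531 internal exons over all tested entries. Sequences were read from the GRCm39 genome at the coordinates of the deposited transcripts, and capitals mark a GGN codon for glycine at each ninth base. The first 4 lines are the last exon of 54 bases in each of the 4 fibrillar genes with the highest TPM, followed by an exon of a basement membrane gene, an exon of a type VI gene and the exon 6 of Col1a2, which is an exception.
Col1a1 exon 46, chr11:94840546-94840599, plus strand: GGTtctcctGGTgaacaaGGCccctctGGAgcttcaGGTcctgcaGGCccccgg
Col1a2 exon 47, chr6:4537173-4537226, plus strand: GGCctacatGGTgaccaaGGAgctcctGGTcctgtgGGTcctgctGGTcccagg
Col3a1 exon 46, chr1:45383957-45384010, plus strand: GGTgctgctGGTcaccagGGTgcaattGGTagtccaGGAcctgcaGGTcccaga
Col5a2 exon 49, chr1:45422327-45422380, minus strand: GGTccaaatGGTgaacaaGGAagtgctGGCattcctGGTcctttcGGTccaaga
Col4a1 exon 17, chr8:11288998-11289051, minus strand: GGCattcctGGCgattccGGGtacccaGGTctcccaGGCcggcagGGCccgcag
Col6a1 exon 9, chr10:76555457-76555510, minus strand: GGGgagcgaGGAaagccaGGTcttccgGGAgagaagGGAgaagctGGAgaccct
Col1a2 exon 6, chr6:4512361-4512414, plus strand: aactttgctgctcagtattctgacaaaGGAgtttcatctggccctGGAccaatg

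A glycine codon stood at all 6 of these positions in 302 of 305 exons of 54 bases in the fibrillar genes, in 12 of 12 in the basement membrane genes and in 134 of 148 in the others. The 3 fibrillar exceptions were exon 6 of Col1a2, of Col24a1 and of Col27a1. The last 54-base exons of Col1a1, Col1a2, Col3a1 and Col5a2 shared 33 to 36 of 54 bases pair by pair (61.1% to 66.7%). A Gly-X-Y triplet takes 9 bases, and 84.0% of the internal exons of fibrillar genes had a length that was a multiple of 9, against 46.9% in basement membrane genes, 55.8% in the others and 13.4% in all tested entries.

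Depth was similar in the 4 libraries, with 108157527 to 111985694 reads rebuilt from coverage and 13002 to 13203 entries at 1 TPM or more. Id1, Id3 and Smad7, known direct BMP targets, were called higher after BMP6 (log2 fold changes of 2.33, 2.46 and 2.01, adjusted p = 0.0164, 0.0104 and 0.0511 in limma). TPM is scaled to transcript length, so levels can be set side by side between genes as far as coverage along the transcripts is even. Of the 43 genes, 17 averaged 1 TPM or more across the libraries and were tested, namely 6 of 11 fibrillar, 2 of 6 basement membrane and 9 of 26 other genes.

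Collagen RNA in the controls came mainly from fibrillar genes. The summed TPM of the 11 fibrillar genes was 502 and 440 in control replicates 1 and 2 (471 ± 43.4, SD, n = 2), which made up 71.9% and 74.0% of all collagen TPM. The 26 other genes summed to 193 and 150 TPM (172 ± 30.7, SD, n = 2), of which the 6 type VI chains held 155 and 116 TPM. The 6 basement membrane genes summed to only 2.79 and 4.33 TPM (3.56 ± 1.09, SD, n = 2), 0.400% and 0.729% of collagen TPM. In both controls the fibrillar sum lay above the sum of the others, and that lay far above the basement membrane sum, without overlap. All collagen genes together held 0.0698% and 0.0595% of the TPM in control replicates 1 and 2.

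**Figure D1:**
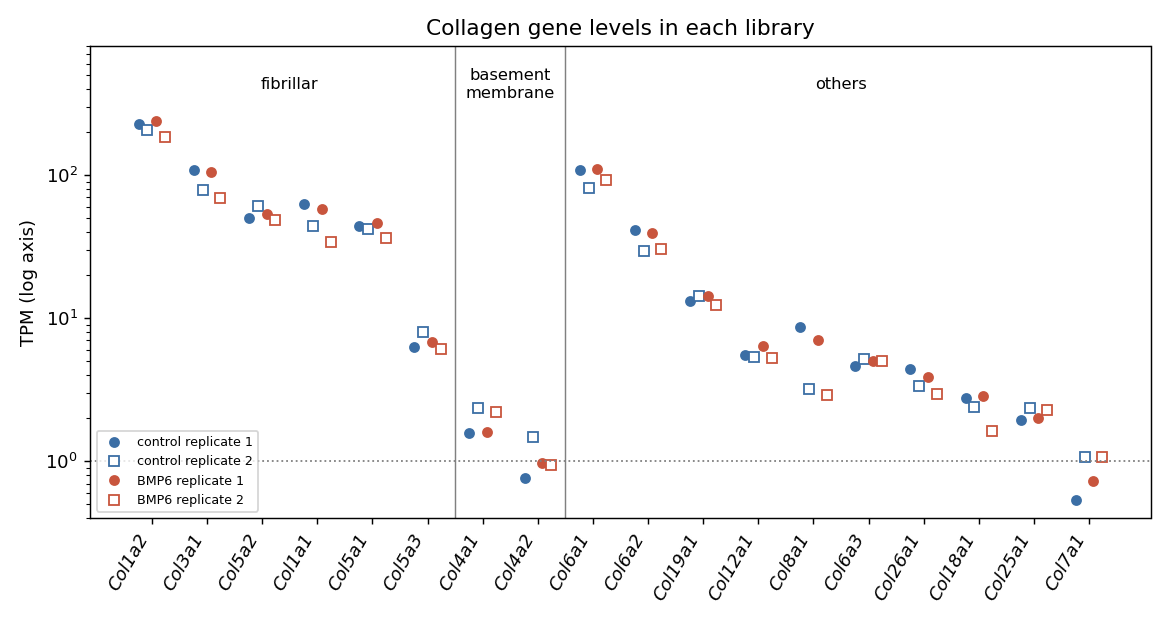
Level of the 17 tested collagen genes and of Col7a1 in each library, in TPM on a log axis, grouped by class and ordered by mean. Circles are replicate 1 and open squares replicate 2, blue is control and red is BMP6, and the dotted line marks 1 TPM. Col1a2 stands above all others at 186 to 240 TPM, and the circles of Col8a1 lie at 7.03 and 8.63 TPM against 2.89 and 3.18 TPM for its squares.

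Among the fibrillar genes, the chains of type I collagen, the main collagen of tendon, bone and interstitial matrix, were not at equal levels. Col1a2 (chr6:4505493-4541544, plus strand, GRCm39) was at 229 and 206 TPM in control replicates 1 and 2 and at 240 and 186 TPM after BMP6 in the same order, and stood at place 880 of all entries by mean TPM. Col1a1 (chr11:94827050-94843868, plus strand) was at 62.9 and 44.2 TPM in the controls and at 57.8 and 34.3 TPM after BMP6. The molecule of type I collagen usually holds more alpha 1 than alpha 2 chains, but Col1a2 RNA exceeded Col1a1 RNA in each library, by 3.64-fold in control replicate 1 up to 5.42-fold in BMP6 replicate 2.

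Col3a1 (chr1:45350698-45388866, plus strand), which encodes the homotrimeric type III collagen of distensible tissues, was at 109 and 79.0 TPM in the controls and at 106 and 69.4 TPM after BMP6. Its level was 1.73 to 2.02 times that of Col1a1 in the 4 libraries. The Col3a1 entry also holds the predicted gene Gm54819. Col5a2 (chr1:45413481-45542442, minus strand) lies 24614 bases from Col3a1 on the opposite strand.

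The chains of type V collagen, which nucleates and limits the width of type I fibrils, came next. Col5a2 was at 49.8 and 60.8 TPM in the controls and at 53.5 and 48.8 TPM after BMP6. Col5a1 (chr2:27776437-27929526, plus strand) was at 44.5 and 42.0 TPM in the controls and at 46.2 and 36.6 TPM after BMP6. The third chain, Col5a3, was lower, at 6.29 and 7.996 TPM in the controls and at 6.79 and 6.06 TPM after BMP6. Thus all 3 chains of type V were read in each library, with Col5a1 5.25 to 7.07 times above Col5a3.

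The other 5 fibrillar genes did not reach 1 TPM in any library. They were Col2a1 and Col11a2, known from cartilage, together with Col11a1, Col24a1 and Col27a1. The highest of them was Col27a1 at 0.167 to 0.354 TPM. Col2a1 was listed at 0 in BMP6 replicate 2 and reached 0.0715 TPM at most.

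Of the basement membrane genes, the ubiquitous pair Col4a1 and Col4a2 passed the filter. Col4a1 (chr8:11248423-11362826, minus strand) was at 1.59 and 2.38 TPM in the controls and at 1.60 and 2.22 TPM after BMP6. Col4a2 (chr8:11362805-11499287, plus strand) was at 0.766 and 1.48 TPM in the controls and at 0.981 and 0.939 TPM after BMP6. The pair is arranged head to head on opposite strands, and their first exons overlap by 22 bases. The libraries were not stranded, so reads in that overlap cannot be assigned to either gene. Col4a3, Col4a4, Col4a5 and Col4a6, the chains of specialised basement membranes such as that of the kidney glomerulus, stayed at or below 0.408 TPM, and Col4a6 was listed at 0 in 2 libraries.

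In the third class, type VI collagen, a beaded filament of the muscle extracellular matrix, stood out by level. Col6a1 (chr10:76544626-76562002, minus strand) was at 108 and 80.8 TPM in the controls and at 111 and 92.5 TPM after BMP6. Col6a2 (chr10:76431596-76459464, same strand, 85161 bases away) was at 41.3 and 29.6 TPM and at 39.2 and 30.6 TPM in the same libraries. Col6a3 was at 4.65 and 5.17 TPM in the controls and at 5.05 and 5.06 TPM after BMP6. A type VI monomer holds 1 chain of each kind, but the TPM of Col6a1 was 15.6 to 23.3 times and that of Col6a2 5.73 to 8.88 times that of Col6a3. Coverage of Col6a3 was mostly at its 3′ end, with at most 7.87 reads per base on the 5′ side of its least covered exon and 147 on the 3′ side as means over the libraries, so its TPM averages uneven coverage. In the best covered exon of each gene, mean coverage was 846.5 (Col6a1), 309 (Col6a2) and 147 (Col6a3) reads per base. The chains thus lay closer together there than in TPM. Col6a4, Col6a5 and Col6a6 did not exceed 0.213 TPM.

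Other genes of this class were lower. Col19a1, a FACIT collagen found in basement membrane zones, was at 13.1 and 14.3 TPM in the controls and at 14.4 and 12.4 TPM after BMP6. Col8a1 (chr16:57444621-57575100, minus strand), a short-chain network collagen, was at 8.63 and 3.18 TPM in the controls and at 7.03 and 2.89 TPM after BMP6. Col12a1, a FACIT collagen on the surface of type I fibrils, was at 5.56 and 5.37 TPM and at 6.38 and 5.27 TPM in the same libraries. For Col8a1 the gap between the replicate numbers was wider than the difference inside either of them, which was not so for Col19a1 and Col12a1.

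Col26a1 was at 4.42 and 3.36 TPM in the controls and at 3.91 and 2.95 TPM after BMP6. Col18a1, whose C-terminal fragment is endostatin, was at 2.77 and 2.39 TPM in the controls and at 2.85 and 1.63 TPM after BMP6. Col25a1, a transmembrane collagen of muscle fibres needed for motor innervation, was at 1.95 and 2.34 TPM and at 1.99 and 2.28 TPM. The Col25a1 entry also holds Gm42837 and Gm43211. The split of Col25a1, Col26a1 and Col18a1 between similar transcripts varied between libraries (37.0% to 90.0% for the main transcript of Col26a1), so their levels and fitted differences are given only for whole genes.

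Col7a1, the anchoring fibril collagen of skin, was below the filter with a mean of 0.855 TPM but reached 1.07 TPM in both replicate 2 libraries, against 0.539 and 0.731 TPM in control and BMP6 replicate 1. The remaining 16 genes of the third class did not reach 1 TPM. They were Col6a4, Col6a5, Col6a6, Col8a2, Col9a1, Col9a2, Col9a3, Col10a1, Col13a1, Col14a1, Col15a1, Col16a1, Col17a1, Col22a1, Col23a1 and Col28a1, of which Col23a1 was highest at 0.369 to 0.895 TPM. Together, the 26 genes below the filter summed to 3.47 to 4.62 TPM per library. Of these, 12 stayed under 0.1 TPM in all libraries, 9 were listed at 0 in at least 1 library and Col28a1 was listed at 0 in all 4. A transcript of Col20a1 is not an entry of its own but belongs to the entry 9230112E08Rik, and it did not exceed 0.0531 TPM.

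Set in order of the control levels, Col1a2 had no overlap with any other gene. Col6a1 and Col3a1 did not differ beyond their spread (94.6 ± 19.5 and 94.0 ± 21.3 TPM, SD, n = 2 each), and Col1a1 (53.5 ± 13.2 TPM) overlapped with both Col5a2 (55.3 ± 7.77 TPM) and Col5a1 (43.2 ± 1.74 TPM), which lay apart from each other. Col6a2 (35.5 ± 8.23 TPM) and Col19a1 (13.7 ± 0.839 TPM) each had a range of its own. The wide range of Col8a1 (3.18 to 8.63 TPM) overlapped with those of Col5a3, Col12a1, Col6a3 and Col26a1, which did not overlap among themselves. Col18a1 lay above Col25a1, while Col25a1 and Col4a1 overlapped, and Col4a2 was lowest.

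Coverage along the transcript was not even in all of these genes, which bears on what their TPM stands for. In Col1a1, Col1a2, Col3a1, Col5a2, Col6a1, Col6a2 and Col19a1, the least covered internal exon still had 55.7% to 83.8% of the smaller of the highest coverages on its 5′ and 3′ side. This measure does not show a slope along the transcript. Coverage of the 5′ 50% of the length was 36.3% to 53.7% of that of the rest in Col1a2. It was 75.9% to 110.5% in Col1a1 and 137% to 153% in Col19a1. The median of 16 collagen genes with at least 10 exons was 39.2% to 57.2%, against 98.4% to 107.1% over all such entries. In Col5a1, mean coverage rose to 534 reads per base in exon 6, dropped to 84.4 in exon 8, 5.32 in exon 9 and 3.27 in exon 14, and rose again to 1046 in exon 65 of 66. The low exon was at 0.612% of the smaller flank, and in all 4 libraries it was below 1% (0.343% to 0.783%). The same measure was 1.64% in Col12a1 (exon 17), 2.21% in Col5a3 (exon 29), 3.43% in Col4a2 and 5.13% in Col4a1, of which the type IV genes had few reads. A value under 5% was found in 4 of 14 collagen genes with transcripts of at least 4000 bases and 10 exons, and in 5.62% of 2187 such entries, where the median was 64.8%. For Col5a1, Col5a3, Col12a1 and the type IV pair, the TPM thus averages a covered 5′ end, a stretch with few reads and a covered 3′ end. In Col6a3 the measure was 15.2%, and its TPM averages a 5′ part with few reads and a covered 3′ end.

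**Figure D2:**
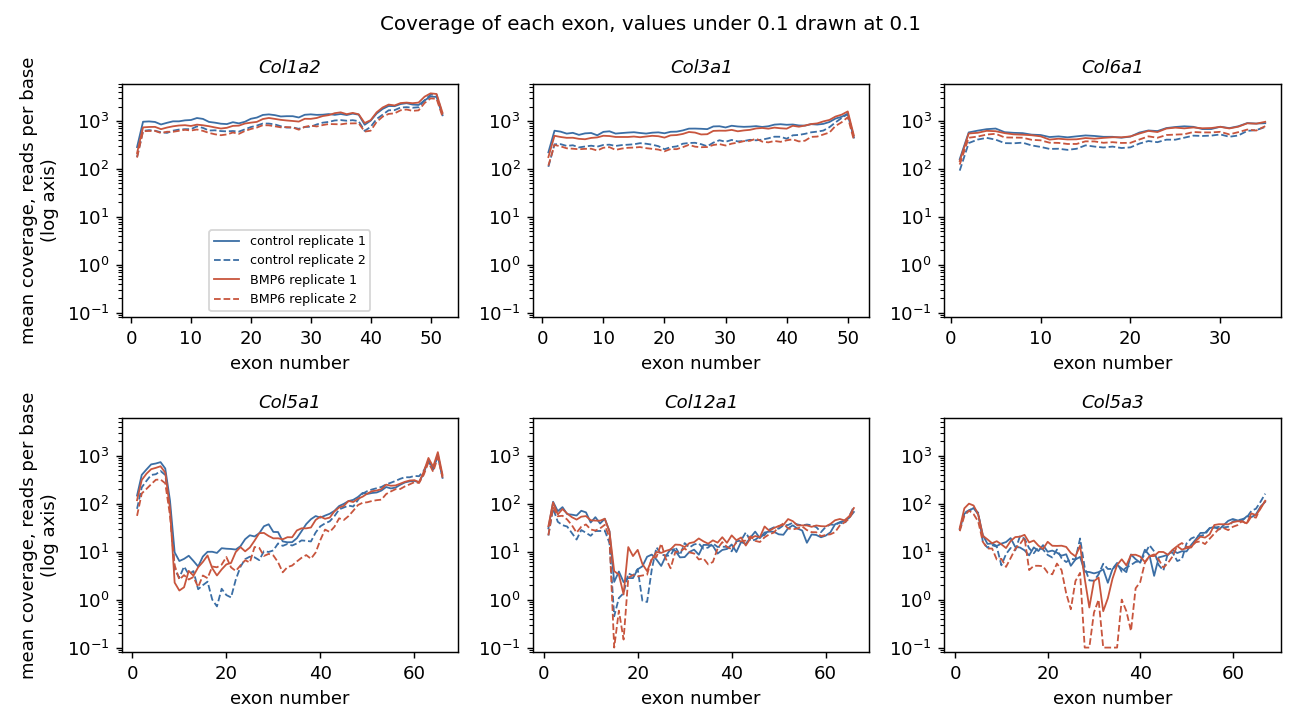
Mean coverage of each exon (reads per base, log axis) against exon number from the 5′ end, with blue for control, red for BMP6, solid lines for replicate 1 and dashed lines for replicate 2. Coverage of Col1a2, Col3a1 and Col6a1 is continuous, while that of Col5a1 falls from 534 in exon 6 to 5.32 in exon 9 as a mean over the libraries, and those of Col12a1 and Col5a3 have stretches of low coverage.

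The covered 5′ part of Col12a1 reached exon 14 (21.8 reads per base) and ended at exon 15 (1.68). The GENCODE M39 annotation of the same build lists a shorter transcript, Col12a1-206, of the type retained intron (chr9:79599310-79626002, minus strand), which spans the first 13 of the deposited exons. Whether reads belong to it was not tested. Exons of Col5a1 also overlap those of the entries 2810430I11Rik by 99 bases and Gm13372 by 113 bases on the opposite strand.

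The first comparison asked whether collagen RNA changes within 1 h of BMP6. A gene was called when its level at least doubled or fell to 0.5 or less and limma on log2(TPM + 1) gave an adjusted p below 0.1. None of the 17 tested genes was called (0 of 17), and none was past the adjusted p alone, against 0.244% of all entries. Over all entries, 27 of 13128 (0.206%) were called, all of them higher after BMP6. In this fit, which had no replicate block, the count at an unadjusted p under 0.05 was 0 of 17, against 420 of 13128 entries (3.20%). The smallest unadjusted p of a collagen gene was 0.417 there. With the replicate number as a block, 215 entries (1.64%) were past the adjusted p, and collagen genes were not among them (the lowest adjusted p was 0.282, for Col1a1). The log2 fold changes ran from -0.24 (Col1a1) to 0.11 (Col6a1) with a median of -0.07, against 0.02 over all tested entries.

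The 95% interval of the log2 fold change stayed within 1 in either direction for 16 of 17 genes, and within 1.5-fold for 11 of 17. The exception was Col8a1 (-0.18, interval -1.36 to 1.00), whose replicates differed most. Col1a1 had an interval of -0.91 to 0.43, Col3a1 one of -0.69 to 0.46, Col1a2 one of -0.38 to 0.30 and Col6a1 one of -0.29 to 0.51. With the block, the intervals of all 17 genes stayed within 1. That of Col1a1 was then -0.42 to -0.05, which excludes 0 before adjustment (adjusted p = 0.282 in limma).

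Within the pairs of a batch, 4 genes were lower after BMP6 in both, namely Col1a1 (-0.12 and -0.36 in pairs 1 and 2, on the log2 scale), Col3a1 (-0.04 and -0.18), Col8a1 (-0.26 and -0.10) and Col26a1 (-0.14 and -0.14). Col6a1 was higher in both (0.03 and 0.19). The other 12 genes went in opposite directions in the pairs. Over all tested entries, 25.7% were lower and 35.0% higher in both pairs.

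By class, the summed TPM after BMP6 was 511 and 381 for the fibrillar genes, 194 and 159 for the others and 3.08 and 3.51 for the basement membrane genes in replicates 1 and 2. The log2 ratio of BMP6 over control was 0.03 in pair 1 and -0.21 in pair 2 for the fibrillar class, 0.14 and -0.30 for the basement membrane class and 0.01 and 0.08 for the others. The ranges of BMP6 and control libraries overlapped in each class. With 2 libraries a group, an exact permutation test cannot give a p under 0.333, so none is printed for these sums.

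**Figure D3:**
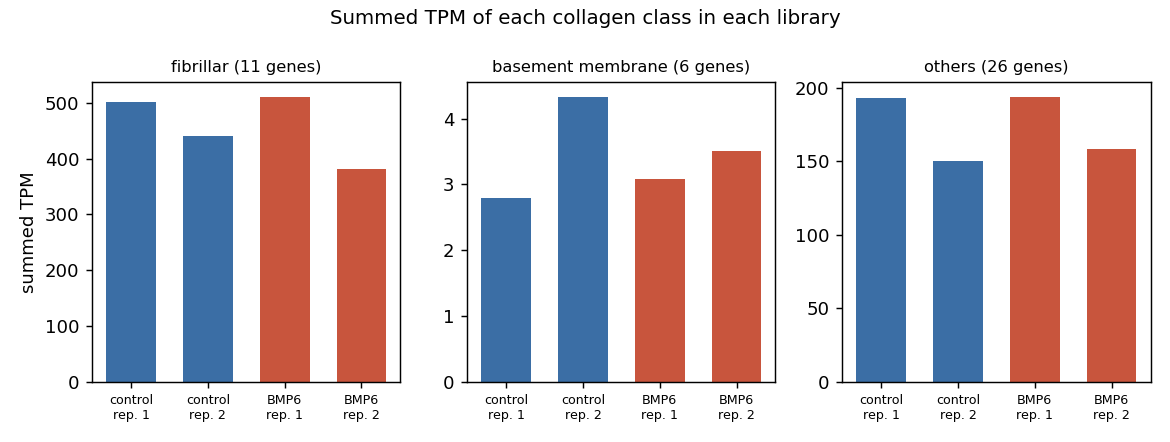
Summed TPM of the genes of each collagen class in each library, with bars from 0 and a separate axis for each class, blue for control and red for BMP6. In the fibrillar and other classes both replicate 1 bars are higher than both replicate 2 bars, and in the basement membrane class both are lower.

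The second comparison set replicate 1 against replicate 2 with the treatment in the fit. It compares these cultures, and since each batch holds 1 BMP6 and 1 control library, its p-values measure only the spread between those. Here 6 of 17 collagen genes (35.3%) were past an adjusted p of 0.1, against 2595 of 13128 entries (19.8%), and all 6 were higher in replicate 1, against 8.37% of all entries. The 6 were the type I chains Col1a1 and Col1a2, Col3a1, the type VI chains Col6a1 and Col6a2, and Col8a1. Fewer cells of a kind and less RNA per cell cannot be told apart in such libraries.

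Col8a1 was the 1 collagen gene that also passed the fold threshold. Its level was 2.71 times higher in replicate 1 than in replicate 2 among the controls and 2.43 times higher among the BMP6 libraries. The log2 difference was 1.12 (SE 0.11, adjusted p = 0.000853 in limma), and over all entries 69 of 13128 (0.526%) were called. The call rests on the scale, since Col8a1 fell short of 2-fold with a pseudocount of 5 and in the FPKM table. Without a filter on low values no entry was past the adjusted p, and Col8a1 had an adjusted p of 0.816.

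Col1a1 differed by 0.62 (SE 0.08, adjusted p = 0.00336 in limma), 1.42-fold in the controls and 1.69-fold after BMP6. Col3a1 differed by 0.53 (SE 0.07, adjusted p = 0.00285), 1.38-fold and 1.52-fold. For the fibrillar genes at the next levels no difference was shown. Col5a2 had a log2 difference of -0.08 (interval -0.30 to 0.15) and was lower in replicate 1 in the controls but higher after BMP6, and Col5a1 had one of 0.20 (interval 0.01 to 0.40, adjusted p = 0.150).

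Col6a2 differed by 0.41 (SE 0.08, adjusted p = 0.0152 in limma) and Col6a1 by 0.34 (SE 0.07, adjusted p = 0.0182), while Col6a3 had a log2 difference of -0.07 (interval -0.31 to 0.18). Col1a2 showed the smallest difference of the 6, 0.26 (SE 0.07, adjusted p = 0.0375), and its groups did not overlap, with 240 and 229 TPM in replicate 1 against 186 and 206 TPM in replicate 2. Without the trend in the variance the adjusted p was 0.165 for Col1a2 and 0.106 for Col6a1, and without the treatment in the fit it was 0.127 and 0.108.

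The basement membrane genes had the opposite sign. Col4a1 was lower in replicate 1 in both groups, at 0.667 and 0.719 times the level of replicate 2, with a log2 difference of -0.35 (interval -0.64 to -0.06, adjusted p = 0.112 in limma). Col4a2 was lower in the controls (0.518 times) but not after BMP6 (1.04 times). In the sums of the classes, the log2 ratio of replicate 1 over 2 was 0.19 in the controls and 0.42 after BMP6 for the fibrillar genes, 0.37 and 0.29 for the others, and -0.63 and -0.19 for the basement membrane genes. No test was run of the difference between the classes.

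In all, 10 of 17 collagen genes (58.8%) were higher in replicate 1 in both groups, against 30.7% of all tested entries, and 3 were lower in both (Col4a1, Col6a3 and Col25a1), against 40.7%. The median log2 difference of the 17 was 0.20 and that of all tested entries -0.03. By class, the median was 0.23 in the fibrillar, 0.32 in the other and -0.29 in the basement membrane genes.

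**Figure D4:**
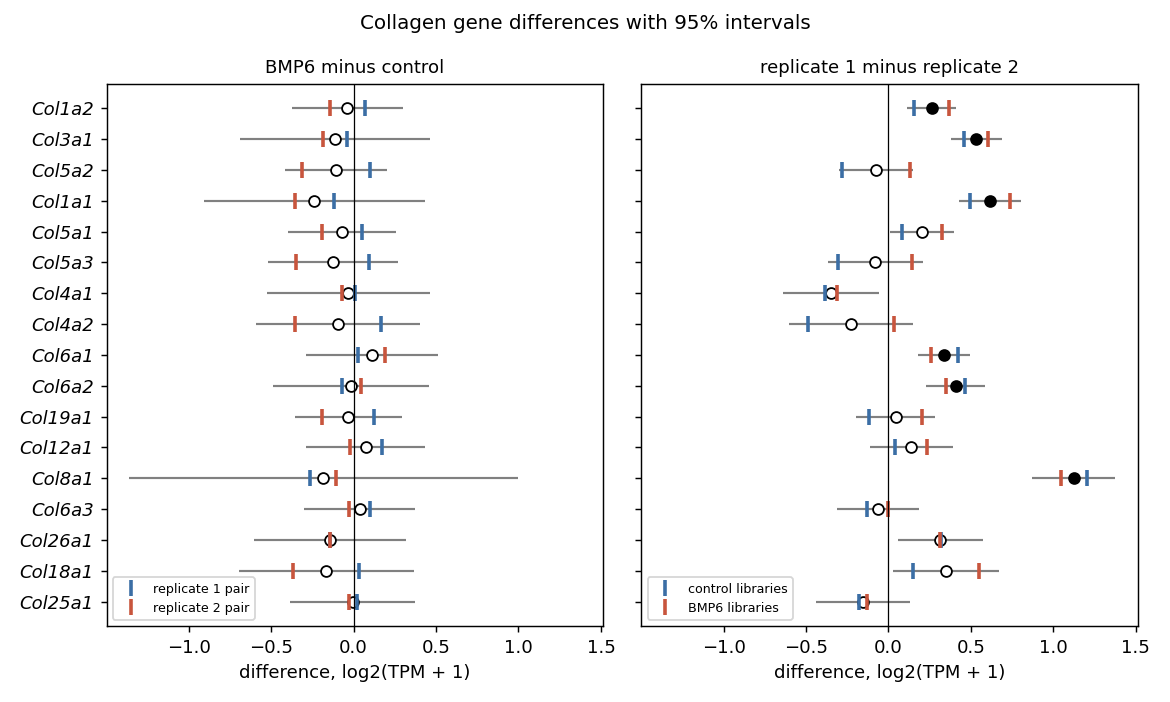
Differences of the 17 tested collagen genes on the log2(TPM + 1) scale, BMP6 minus control on the left and replicate 1 minus replicate 2 on the right. Circles are the fitted differences with 95% intervals, filled where the adjusted p was under 0.1, and coloured ticks are the values in each pair. No circle is filled on the left, and 6 are filled on the right, with Col8a1 at 1.12.

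The libraries also differed in how coverage was spread over transcripts, and this moved with the replicate number. Over 2143 tested entries with at least 10 exons and 4000 bases, the median log2 ratio of replicate 1 over 2 was -0.03 for the 5′ part of the transcript (the exons centred in the first 50% of its length) and -0.26 for the 3′ part, and the 5′ part was the higher of both in 85.0% of them. In 15 of 16 collagen genes with at least 10 exons the 5′ part had the higher ratio as well, with medians of 0.50 for the 5′ and 0.05 for the 3′ part. Over the 4868 entries with at least 10 exons and any length, this was so in 77.1%, with medians of 0.01 and -0.12. In the 3′ part alone, Col1a1 was at 0.45, Col3a1 at 0.39, Col6a2 at 0.37, Col6a1 at 0.30 and Col1a2 at 0.18. These 5 genes were thus higher in replicate 1 in both parts, by less in the 3′ part. Col1a2 was at -0.0046 in the 3′ part of the controls and at 0.37 after BMP6.

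The parts differed most for Col4a2, Col12a1 and Col5a1. Col4a2 was at 0.28 in the 5′ part and at -0.57 in the 3′ part, Col12a1 at 0.68 and -0.09 and Col5a1 at 0.76 and 0.05. Col4a1 was at -0.07 in the 5′ part and -0.60 in the 3′ part. Col8a1 has too few exons for this measure. For each gene the measure reads only the most abundant transcript. In Col25a1, Col26a1 and Col18a1 the split between transcripts varied between libraries, so their values also carry that variation. The share of this coverage pattern in the difference between the replicates was not tested. For BMP6 against control, the median of the 16 genes was -0.19 in the 5′ part and -0.03 in the 3′ part, against 0.01 and 0.10 over the long entries. Over the entries with at least 10 exons and any length it was -0.0002 and 0.05.

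Collagen chains are modified and folded in the endoplasmic reticulum, and the genes of that step were taken from a list of 20, all of which were found. P4hb, the beta subunit of prolyl 4-hydroxylase, and Ppib, a prolyl isomerase, were the highest at 509 to 616 and 377 to 429 TPM. None of 18 tested genes was past the adjusted p after BMP6. In replicate 1 against 2, 12 of 18 were higher and 1 lower past the adjusted p (72.2%, against 19.8% of all entries), and the median log2 difference was 0.28.

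The 12 included the prolyl hydroxylase genes P4ha2 (0.66), P4ha1 (0.34), P4hb (0.25) and P3h3 (0.73) and the lysyl hydroxylase genes Plod1 (0.62), Plod3 (0.33) and Plod2 (0.33), all on the log2 scale. They also included Serpinh1 (0.22), which encodes the collagen chaperone HSP47, together with Fkbp10 (0.27), P3h4 (0.29), Crtap (0.32) and the glycosyltransferase gene Colgalt1 (0.32). P4ha2, for example, was at 266 and 262 TPM in the replicate 1 libraries and at 174 and 160 TPM in the replicate 2 libraries, which did not overlap. Sec24d, a coat protein for the export of procollagen, was lower in replicate 1 (-0.40). Ppib had a log2 difference of 0.08 and an adjusted p of 0.379.

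Of 14 genes for procollagen processing and cross-linking, 10 were tested. Lox, lysyl oxidase, and Pcolce, an enhancer of the procollagen C-proteinase, were the highest, at 105 to 127 and 87.8 to 115 TPM. None was past the adjusted p after BMP6. In replicate 1 against 2, 4 of 10 were higher past the adjusted p (against 8.37% of all entries), namely the transglutaminase gene Tgm2 (0.57), the N-proteinase gene Adamts2 (0.39) and the lysyl oxidase homologs Loxl2 (0.37) and Loxl3 (0.35), and 0 were lower.

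Of 13 genes for collagen receptors, 12 were found and 7 tested. The integrin gene Itgb1 was at 290 to 325 TPM and the discoidin receptor gene Ddr2 at 25.7 to 29.1 TPM, while of the collagen-binding partners of Itgb1, Itga1 was at 4.26 to 5.47 TPM and Itga2 and Itga11 did not exceed 0.331 TPM. Calcr, through which type V collagen acts on MuSCs, was at 2.10 and 2.31 TPM in the replicate 1 libraries against 1.22 and 1.28 TPM in the replicate 2 libraries, and was higher in replicate 1 (0.51, adjusted p = 0.0401 in limma). Adgrg1, an adhesion receptor that binds type III collagen, was lower in replicate 1 (-0.51, adjusted p = 0.0164), which makes 2 of 7 past the adjusted p (28.6%, against 19.8% of all entries). After BMP6 none was past the adjusted p, and with the replicate block Ddr1 was (0.42, adjusted p = 0.0814, against 1.00 without it). Ddr1 was at 14.0 and 14.9 TPM in the controls and at 19.6 TPM in both BMP6 libraries.

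Among 12 genes for collagen degradation, 6 were tested and none was past the adjusted p after BMP6. The inhibitor genes Timp2 and Timp1 were the highest at 231 to 291 and 196 to 226 TPM. Mmp14, a membrane-bound collagenase, was at 180 and 184 TPM in the replicate 1 libraries and 139 and 143 TPM in the replicate 2 libraries, and was higher in replicate 1 (0.36), as was Fap (0.70). Timp3 was lower in replicate 1 (-0.31), so 3 of 6 were past the adjusted p (against 19.8% of all entries).

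Of 15 other genes of the basement membrane, for laminins, nidogens and proteoglycans, 10 were tested, among them Lamb2 at 15.0 to 21.4 TPM. The 15 genes summed to 93.8 to 105 TPM per library, against 2.79 to 4.33 TPM for the type IV genes. None was past the adjusted p after BMP6, and in replicate 1 against 2 the share past it was 2 of 10 (20.0%), close to the 19.8% of all entries, with Lamb2 (0.27) and Lamb3 (0.28) higher in replicate 1.

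Of 14 genes for other components of the fibrillar matrix, 11 were tested. Sparc, a collagen-binding glycoprotein, was far the highest at 1548 to 2303 TPM, above Postn (periostin) at 137 to 199 TPM. None was past the adjusted p after BMP6. In replicate 1 against 2, Sparc (0.41), Postn (0.46), Bgn (0.45) and Vcan (0.49) were higher past the adjusted p and Thbs1 was lower (-0.36), which is 5 of 11 (45.5%, against 19.8% of all entries).

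**Figure D5:**
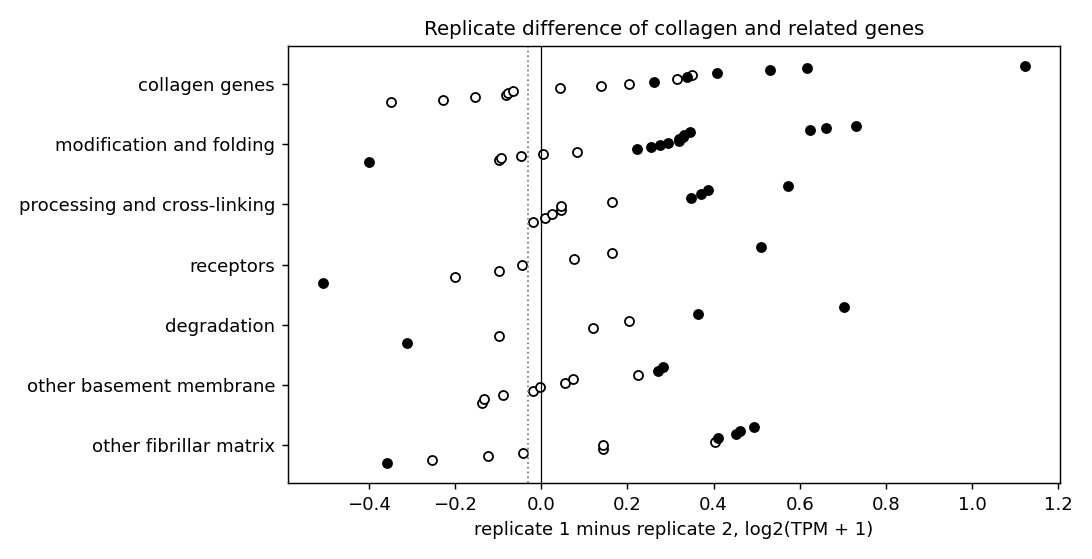
Replicate 1 minus replicate 2 on the log2(TPM + 1) scale for each tested gene of the collagen group and of 6 lists of related genes, with filled circles for an adjusted p under 0.1 and the dotted line at the median of all tested entries (-0.03). In the list for modification and folding, 12 filled circles lie to the right of 0 and 1 to the left.

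Markers of the cultured cells and of other cells that could accompany them were read beside these results. The 9 genes for MuSCs and myoblasts summed to 8466 to 9440 TPM, led by Myog at 4400 to 5472 TPM. The authors describe Myog as induced when terminal differentiation begins. Pax7, the gene of the reporter used for sorting, was at 8.29 to 11.7 TPM. In replicate 1 against 2, 5 of 9 were higher past the adjusted p, against 8.37% of all entries (Myf5 by 0.52, Cdh15 by 0.35, Itga7 by 0.32, Des by 0.23 and Vcam1 by 0.23) and Myog was lower (-0.24). Without regard to the adjusted p, 6 of 9 were higher and 3 lower, among them Pax7 (-0.27, adjusted p = 0.101 in limma). The 9 genes for fibroblasts and fibro-adipogenic cells summed to 429 and 447 TPM in the replicate 1 libraries and to 348 and 360 TPM in the replicate 2 libraries. Of that, Gsn, an actin-severing protein that muscle cells make too, held 324 to 415 TPM. Gsn (0.31) and Dpt (0.89) were higher in replicate 1 past the adjusted p, 2 of 6 tested (33.3%, against 8.37% of all entries). Without regard to the adjusted p, 6 of 6 were higher in replicate 1, against 44.0% of all tested entries.

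Of the other genes in that list, Ly6a was at 18.7 to 24.1 TPM and Thy1 at 2.38 to 3.07 TPM. The defining receptor of fibro-adipogenic cells, Pdgfra, was at 0.164 and 0.158 TPM in control and BMP6 replicate 1. In replicate 2 it was at 0.0821 and 0.0530 TPM. Dcn was at 1.57 and 1.92 TPM against 1.19 and 0.955 TPM in the same order, and Lum at 0.0770 to 0.270 TPM. Pi16 was lower in replicate 1, at 0.102 and 0.135 TPM against 0.178 and 0.263 TPM. Scx, a transcription factor of tendon cells, was at 17.9 and 19.3 TPM in replicate 1 and at 82.7 and 67.2 TPM in replicate 2 (-1.95, adjusted p = 3.28e-05 in limma), while the tendon gene Tnmd was listed at 0 in 3 libraries and at 0.0232 TPM in the other. Of the cartilage markers, Sox9 was at 22.3 to 36.5 TPM and Acan and Matn1 did not exceed 0.0367 TPM. Of all marker genes, none was past the adjusted p after BMP6 in limma without the replicate block, and with it Sox9 was higher (0.47, adjusted p = 0.0344) and Des lower (-0.24, adjusted p = 0.0312). Markers of endothelial cells summed to 1.25 to 2.16 TPM, of pericytes or smooth muscle to 7.12 to 9.53 TPM, of immune cells to 1.80 TPM at most and of Schwann cells to 0.386 to 0.601 TPM, with Ptprc at or under 0.00618 TPM. The part of other cells in the collagen levels was not tested.

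Promoters of 34 of the 43 genes, 250 bases before to 50 after the start of a RefSeq transcript, were found in a table of the older build GRCm38.p6, so none is printed. These genes had 37 promoters in the table. The letters GGCGCC, a SMAD1/5 binding sequence, were in 5 of 37 (13.5%) and in 11.9% of all 32851 promoters. The shorter CAGAC, read on both strands, was in 19 of 37 (51.4%) and in 49.6% of all. CCAAT was in 13 of 37 (35.1%) and 37.4%, and TATAAA in 5 of 37 (13.5%) and 13.6%. The shares of the 37 collagen promoters were thus close to those of all promoters. Of the 15 promoters of 13 tested genes, 10 held CAGAC, 6 CCAAT, 2 GGCGCC and 1 TATAAA. Differences between these small counts and the shares of all promoters were not tested. No motif holds another, and a match or its absence describes only that window.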

How the data were processed

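Libraries were unstranded full-length cDNA of polyA RNA, amplified without molecular identifiers. The authors, per their methods, aligned reads with STAR 2.7.11a (GRCm39, GENCODE M32), handled alignments with SAMtools 1.17, and merged and quantified transcripts with StringTie 2.2.1, without its correction for reads mapping to several places. The authors deposited TPM and FPKM per gene in joined tables, and coverage (mean signal over each transcript or exon, not scaled to depth) per library. Reads were rebuilt as coverage times transcript length over 100 bases, and came to 108157527 to 111985694 per library. They are not independent molecules.

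limma 3.58.1 (R 4.3.3, lmFit and eBayes with trend, two-sided) was fitted to log2(TPM + 1), a scale that understates changes of low genes, over the 13128 entries averaging 1 TPM or more, with Benjamini-Hochberg adjustment. The main fit for BMP6 had no block. The fit for the replicates had both terms. The rebuilt reads entered voom as an alternative. The fits were tested on simulated data. Same-numbered libraries share a batch per the labels, and their deviations from the group means correlated at 0.563 across entries. Nothing says whether replicates came from separate animals, so p-values measure the spread between these libraries. Collagen genes with a mean TPM of at least 1 were named, and of other lists the 2 highest members and those past the adjusted p, except 1 that is not reported here. Members and lists were chosen with earlier results of these data known. The 5′ and 3′ parts of transcripts were compared after seeing the data. Exon sequences are from the GRCm39 genome.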

Additional observations from a re-analysis of the deposited data

How the results depend on the processing

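No alternative called a collagen gene after BMP6. Calls over all entries moved from 27 to 16 with a pseudocount of 5, 2 with no filter, 16 where entries averaged 5 TPM or more, 14 without the trend, 43 with the replicate block, 72 by voom on rebuilt reads with the replicate block and 13 at an adjusted p under 0.05, and ranged from 23 to 39 with 1 library left out. For the collagen genes, the replicate block brought no gene past the adjusted p. In replicate 1 against 2, the 1 collagen call became 0 with a pseudocount of 5, 0 with no filter and 0 in FPKM, and 6 without a fold threshold. Calls over all entries moved from 69 to 144 with a pseudocount of 0.1, 34 with one of 5, 0 with no filter (0 past the adjusted p), 157 by voom and 2595 without a fold threshold. The cause was not tested.

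Col25a1 turned from -0.01 to 0.13 by voom and 0.12 by voom with the block after BMP6. With 1 library left out (the lone sample assumed to vary like the others), the log2 fold changes after BMP6 ran from -0.22 to 0.15 for Col1a2, -0.10 to 0.32 for Col6a1, -0.41 to 0.19 for Col3a1, -0.25 to 0.034 for Col5a2, -0.61 to 0.13 for Col1a1, -0.23 to 0.094 for Col5a1, -0.25 to 0.22 for Col6a2, -0.13 to 0.068 for Col19a1, -0.28 to 0.024 for Col5a3, -0.044 to 0.19 for Col12a1, -0.78 to 0.42 for Col8a1, -0.029 to 0.10 for Col6a3, -0.30 to 0.015 for Col26a1, -0.44 to 0.11 for Col18a1, -0.094 to 0.084 for Col25a1, -0.22 to 0.16 for Col4a1 and -0.34 to 0.15 for Col4a2. The sign of each thus changed with the library left out. These fits had no block, and with 1 library missing the groups differ in batch as well as in BMP6. Inside the batch pairs, Col1a1, Col3a1, Col8a1 and Col26a1 were lower in both and Col6a1 was higher in both. Class sums in the controls were 245, 1.85 and 89.4 FPKM for the fibrillar, basement membrane and other genes. Their ranges with 1 library left out were 440 to 502, 2.79 to 4.33 and 150 to 193 TPM. The log2 ratio of BMP6 over control ran from -0.30 to 0.12, -0.39 to 0.24 and -0.13 to 0.23, and that of replicate 1 over 2 from 0.20 to 0.41, -0.56 to -0.26 and 0.29 to 0.37, in the same order. For the difference between replicates of single genes, 126 of 147 alternative values kept the direction and the side of the adjusted p, 10 fell short of it and 11 passed it, all in the same direction. With 1 library left out, which leaves these differences without a test, 40 of 68 values moved by more than the standard error of the full fit and 28 did not.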
